A study of Mus musculus with 2 samples.

Results

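Ribosomal protein genes were described in RNA of macrophage nuclei. The set held every gene whose symbol follows the Rpl or Rps naming of cytosolic ribosomal proteins, with an optional a, x, l or y ending, and that has at least 1 protein-coding transcript in the deposited annotation. The rule found 80 genes of 55450, 49 of the large subunit and 31 of the small subunit, and used no measured value. The symbols Rps4l, Rpl32l and Rpl6l follow the naming but have no protein-coding transcript, so they are no members. Fau and Rps3a1, which encode further cytosolic ribosomal proteins under other names, also fall outside the set.

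The cells were macrophages grown from bone marrow of C57BL/6J mice, a primary cell culture. They had been given Lipid A, the TLR4-binding core of bacterial lipopolysaccharide, at 100 ng/ml for 12 hours, were then left for 12 hours after it was washed out, and received 100 ng/ml again for the last 20 minutes. The 2 libraries of this 1 group were total RNA depleted of ribosomal RNA, and the labels call the fraction nucleoplasmic in the description and nucleus in the characteristics. They carry the same donor label, and replicate 1 started with 1 µg of RNA and replicate 2 with 500 ng, so RNA input and replicate cannot be told apart. Sex and age were not collected, and nothing in the labels says whether the replicates were separate animals or cultures, so their spread may be technical. No library of unexposed cells and no cytoplasmic library was analysed here, and no value below measures a response to Lipid A or an export from the nucleus. All 6 macrophage markers read, Adgre1, Csf1r, Cd68, Itgam, Lyz2 and Spi1, were above 1 TPM (a unit that divides reads by transcript length and scales every library to the same total), with a median of 206 TPM. Of 13 markers of neutrophils, lymphoid, stromal and erythroid cells, none exceeded a mean of 1.42 TPM, and Ly6g, Elane, Cd3e, Pdgfra and Hba-a1 had no reads in either library.

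A ribosome carries its proteins in nearly equal numbers, so cells make them from many separate genes at once. Their mRNAs are short, abundant and long-lived, and typically begin with a run of C and T bases, the terminal oligopyrimidine (TOP) motif, through which mTOR controls their translation. Most of the mRNA in a cell is cytoplasmic. A nuclear library holds newly made and incompletely spliced RNA besides finished mRNA, and several ribosomal protein genes are known to carry small nucleolar RNAs (snoRNAs) in their introns and to limit their own output through splicing into transcripts that are destroyed.

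Ribosomal protein genes were nearly all expressed in the nuclear RNA, at levels that per transcript length lay above those of most other expressed genes. Of the 80 members, 77 (96.25%) had a mean of 1 TPM or more, against 45.8% of all 21901 protein-coding genes, and 72 had at least 10 TPM in both libraries. The median of the 77 was 34.5 TPM in replicate 1, against 30.8 TPM in replicate 2. The other 9960 protein-coding genes at 1 TPM or more had medians of 7.89 and 9.62 TPM, so the members' median of the mean, 32.1 TPM, was 3.63 times theirs of 8.84 TPM. Among those other genes, 15.2% lay above the members' median. Reads per gene did not separate the groups in this way: CPM, reads scaled to the library total but not divided by length, had medians of 25.3 and 16.8 in the members against 22.8 and 23.9 in the other genes, a ratio of 1.08. The main coding transcript of a member was 733 bases long in the median, against 2812 bases in the other genes. In the other deposited transcript table, made from the reads without the alignment, the ratio of medians was 2.56.

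All members together took up 50159 expected counts in replicate 1, which was 0.229% of the library (95% Wilson interval 0.227% to 0.231%). In replicate 2 they took up 32539, which was 0.184% (0.182% to 0.186%). The mean was 0.206% ± 0.0319 (SD, n = 2), and the intervals, which cover counting error only, did not overlap. Summed TPM was 3162 in replicate 1 and 2932 in replicate 2. In bulk RNA of this kind, fewer nuclei of a kind and less RNA per nucleus cannot be told apart.

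**Figure D1:**
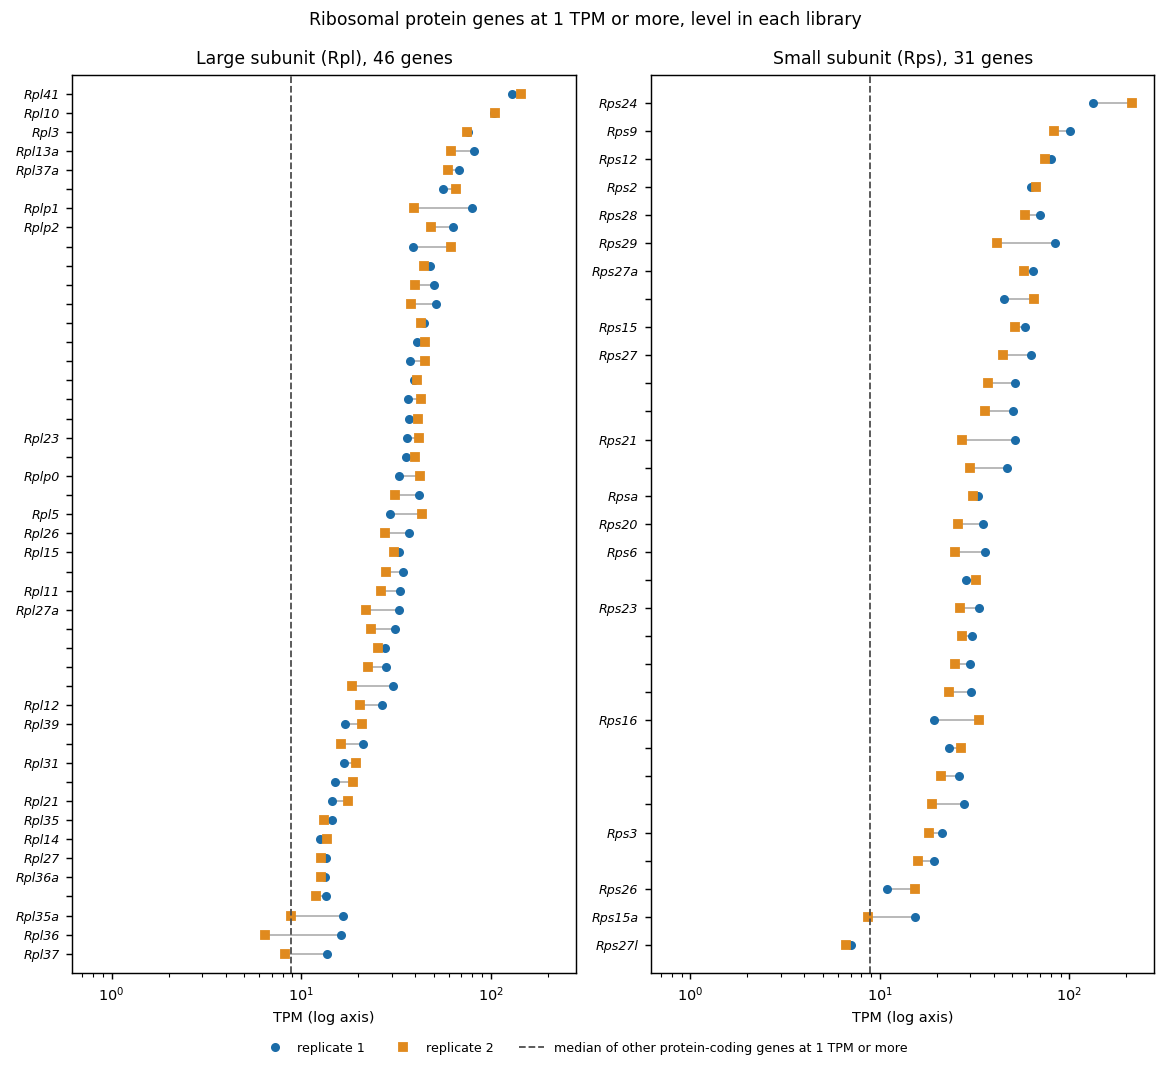
Level of the 77 ribosomal protein genes with a mean of 1 TPM or more, in TPM on a log axis, with large-subunit genes on the left and small-subunit genes on the right; circles are replicate 1, squares replicate 2, and the dashed line is the median of other protein-coding genes at 1 TPM or more (8.84 TPM). Names are given for genes described in the text: Rps24 and Rpl41 stand highest, Rps27l lowest, and 72 genes were at 10 TPM or more in both libraries.

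The expressed members covered a 25.4-fold range, from 6.80 TPM for Rps27l, a paralog of Rps27, to 173 TPM for Rps24. Without Rps27l the lowest mean was 10.9 TPM, for Rpl37, although the ribosome needs the standard proteins in nearly equal numbers. Rps24, a small-subunit protein whose human gene is mutated in the inherited anaemia named after Diamond and Blackfan, had 133 TPM in replicate 1, against 213 TPM in replicate 2. Rpl41, which encodes a very short basic peptide of the large subunit, had 129 and 145 TPM. Their ranges over the libraries overlapped, so these values do not order the leading pair. Rpl10, which joins the large subunit late in its assembly and lies near the peptidyl transferase centre, was almost equal in both libraries, with 104 and 106 TPM. Rps9 had 101 and 82.8 TPM and Rps12 80.4 and 74.2 TPM. Each of Rpl41, Rpl10 and Rps9 stood above the next gene without overlap between libraries.

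Below them the order blurred. Rpl3, a core protein of the large subunit, had 76.0 and 74.8 TPM. Rpl13a, which in human monocytes also acts outside the ribosome as a translational repressor, had 81.7 and 61.7 TPM. Rps2, at the mRNA entry channel, had 62.6 and 66.9 TPM. Their ranges overlapped with those of their neighbours, as did those of Rpl37a (68.3 and 59.5 TPM) and Rps28 (69.6 and 58.1 TPM). Over all 76 neighbouring pairs in the order, only 5 had ranges that did not overlap, the others of these being Rpl21 above Rpl35 and Rpl37 above Rps27l. The SD between libraries was 14.7% of the mean in the median gene, and log2 TPM of the libraries correlated across the 77 genes with a Pearson r of 0.90, a description over genes that share libraries and annotation.

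Large- and small-subunit genes had similar medians. The 46 large-subunit genes at 1 TPM or more had a median of 34.3 TPM and the 31 small-subunit genes one of 30.5 TPM. The 5 lowest expressed members were Rps27l, Rpl37, Rpl36, Rps15a and Rpl35a. Rpl37 had 13.6 TPM in replicate 1, against 8.25 TPM in replicate 2, and Rpl36 16.3 and 6.47 TPM. The 4 members on the X chromosome had a median of 24.6 TPM, from Rpl36a at a mean of 13.0 TPM to Rpl10. The 19 members whose human counterparts are listed for Diamond-Blackfan anaemia were all above 1 TPM, with a median of 29.9 TPM. Both ends of the order changed in the other deposited table, where the expressed members had medians of 8.76 and 18.6 TPM. In that table Rpl12 was lowest, with 2.10 and 4.75 TPM, beside 2.13 and 7.42 TPM for Rps27l. Rps12, among the highest above, had only 4.27 and 11.6 TPM there, and Rpl35a had 11.6 and 16.9 TPM.

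The stalk, the flexible arm of the large subunit that binds translation factors, is built on Rplp0 with dimers of Rplp1 and Rplp2. Rplp1 had 80.1 TPM in replicate 1, against 39.3 TPM in replicate 2, Rplp2 had 63.5 and 48.2 TPM, and Rplp0 had 33.0 and 42.5 TPM. Both dimer-forming genes were above Rplp0 in replicate 1, whereas Rplp1 was below it in replicate 2. The order of these 3 genes therefore differed between the libraries.

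Variant paralogs, copies that replace a standard protein in certain tissues, were near or at the limit of detection apart from Rps27l. Rpl3l, which replaces Rpl3 in striated muscle, had 0 reads in replicate 1 and 3 in replicate 2. Rpl39l, a paralog of Rpl39 best known from testis, had 1 and 0 reads. For Rpl10l, a testis-expressed copy of the X-linked Rpl10, no read was counted in either library. A count of 0 allows up to 0.137 CPM in replicate 1 and 0.169 in replicate 2. Rps27l, a p53-responsive paralog of Rps27, had 7.01 and 6.59 TPM, resting on 60 and 39 reads, against 62.9 and 44.7 TPM for Rps27. Rps4l, outside the set for want of a protein-coding transcript, had 0.55 and 0.26 TPM.

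Sequence at the transcript start separated the members from other genes in part. A run of at least 5 C or T bases that began within the first 5 bases of the main coding transcript occurred in 24 of 77 members (31.2%) and in 13.6% of 9960 other protein-coding genes. The 77 expressed mitochondrial ribosomal proteins, which belong to the separate ribosome of the mitochondrion, had such a run in 16 cases. The starts are those of annotated transcripts, which need not be the start sites used in these cells. Median levels were 37.4 TPM in members with a run and 30.5 TPM in members without. The first 25 bases, read from GENCODE M21 transcripts on mm10, are shown for the 5 highest members with a run, which is in capitals, and for the 3 paralogs with at most 3 reads in a library, which had none.
Rps2, chr17:24720063-24720087, plus strand: cgcgCTTCTTggagcactataaatt
Rpl37a, chr1:72711290-72711314, plus strand: CTCTTCggacttgggcttgggttcc
Rps27a, chr11:29547836-29547860, minus strand: TTTCCgatccgccatcgtgggtgag
Rplp1, chr9:61914518-61914542, minus strand: gaTCTTTTCCTCagctgccgccaag
Rps15, chr10:80292453-80292477, plus strand: gtaCTTCCTTTTCCgagtaaccgcc
Rpl3l, chr17:24732685-24732709, plus strand: agtgccccaaatgtcctgaaaggct
Rpl39l, chr16:10170226-10170250, plus strand: ccggatttccggtggtcgccattct
Rpl10l, chr12:66284377-66284401, minus strand: gcggctggcggtgggcacgcacggc

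Promoter letters were searched in RefSeq windows of GRCm38.p6 that run from 250 bases before to 50 bases after a gene start. Of the 80 members, 60 had a window, with 72 windows in all. The letters CTTTCC, on either strand, were in 50% of the members' windows and in 26.6% of all 32851 windows. The longer CTTTTCC was in 15.3% of the members' windows and 8.06% of all, and the TATA-box letters TATAAA in 8.33% of the members' windows and 13.6% of all. CTTTCC and CTTTTCC do not contain each other. The starts of Rplp1 and Rps15 above hold CTTTTCC inside their runs, so such counts overlap with the start run, and a match of letters is not a bound site.

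The libraries differed in a common direction for most members. To express it, 1 was added to every TPM, the log2 ratio of replicate 1 to replicate 2 was formed, and the median ratio of all 12942 genes at 1 TPM or more, -0.29, was subtracted. It was positive in 69 of 77 members, against 53.2% of protein-coding genes at this level, with a median of 0.46 in the members and 0.03 in the other protein-coding genes. Before the median was subtracted, the median log2 ratio was 0.18 in the members and the ratio was positive in 52 of 77. The other protein-coding genes then had a median of -0.25 and an upper quartile of 0.05. The median over stalk genes was 0.68, over large-subunit genes 0.38 and over small-subunit genes 0.55. With 1 library on each side there is no test of this difference.

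Few members differed strongly. A difference over 2-fold toward replicate 1 was found in 6 members, 7.79% of the 77, against 4.5% of all genes, and none lay over 2-fold toward replicate 2, against 2.77% of all genes. Rpl36, a large-subunit protein, had the widest difference, 1.50 on the log2 scale, but rested on 84.0 and 22.0 expected counts. Rplp1 followed with a log2 difference of 1.30, from 688 and 226 counts, and Rps29 with 1.29, from 84.2 and 41.6 TPM or 456 and 150 counts. Rps21 had a log2 difference of 1.19 (51.7 and 27.3 TPM) and Rpl35a one of 1.13 (16.6 and 8.84 TPM). All 5 have coding transcripts under 500 bases. Other members this short were not over 2-fold, such as Rpl41, with 437 bases and a log2 difference of 0.12. By CPM, with the median of all genes subtracted in the same way, Rpl35a was not over 2-fold, with 14.7 and 11.3 CPM and a log2 difference of 0.44. The last of the 6, Rps15a, had 15.4 and 8.64 TPM and a log2 difference of 1.05. Its CPM was 27.6 in replicate 1 and 29.9 in replicate 2, a difference of -0.022 after the median was subtracted, and its main coding transcript of 5179 bases is the longest of the set. In the other deposited table no member lay over 2-fold toward replicate 1.

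At the opposite end, Rps16 had the lowest difference, -0.48, with 19.2 TPM in replicate 1, against 33.5 TPM in replicate 2. Rps24 followed at -0.38, with a main coding transcript of only 468 bases. The difference fell with the length of the main coding transcript, with a Spearman rho of -0.20 across the 77 members and -0.22 across the 9960 other genes, where all points share the libraries. RNA input also differed between the libraries, and its part in the difference was not tested.

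**Figure D2:**
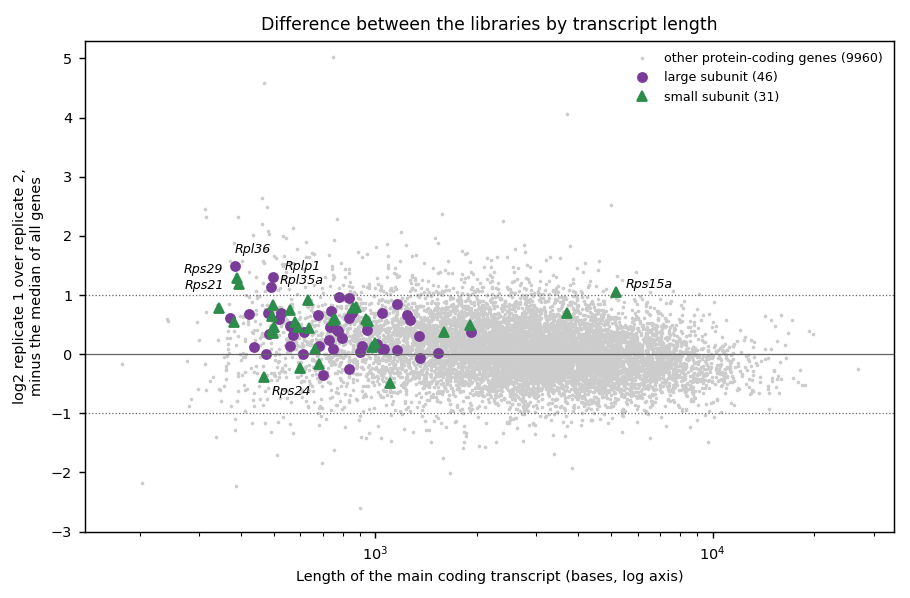
Difference between the libraries (log2 ratio of replicate 1 to replicate 2 with 1 TPM added to each, less the median of all genes) against the length of the main coding transcript in bases on a log axis; purple circles are large-subunit genes, green triangles small-subunit genes, grey dots other protein-coding genes, and dotted lines mark a 2-fold difference. Most members lie above 0 among other short transcripts, and 5 of the 6 beyond the upper dotted line have transcripts under 500 bases. Other members under 500 bases lie below that line, among them Rps24.

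Splicing was read from the annotation's transcript classes. A retained-intron transcript is an annotated form, without a coding frame of its own, that is classed as holding intron sequence of its gene, and its share here is the percent of the gene's TPM given to such entries. Of the 77 expressed members, 62 (80.5%) have such an entry, against 62.1% of the other protein-coding genes. In the 62 the median share was 16.2% in replicate 1 and 17.4% in replicate 2, below the 25.0% and 27.4% in the 6182 other genes. Taken as a share of reads, which gives long transcripts more weight, the median was 19.5% in the members and 15.3% in the other genes, so the direction of the contrast with other genes turned with the measure. Of all reads on members, 70.6% and 67.4% were assigned to coding transcripts and 23.1% and 25.9% to retained-intron transcripts.

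A minority of members had most of their TPM in retained-intron transcripts. The share averaged 50% or more in 9 of 62 members (14.5%), near the 15.7% of all protein-coding genes with such entries. It reached 50% in both libraries in 7 of the 62, against 688 of the 6182 other genes, a similar proportion. It was under 10% in 15 members (24.2%), against 16.8% of the other protein-coding genes, among them Rplp0 (0.847% and 2.33%) and Rps29 (2.59% and 4.84%). The shares of the libraries correlated across the 62 genes with a Pearson r of 0.88, and differed by 6.10 percentage points in the median gene. Between the alignment-based and the other deposited table the r was 0.84.

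**Figure D3:**
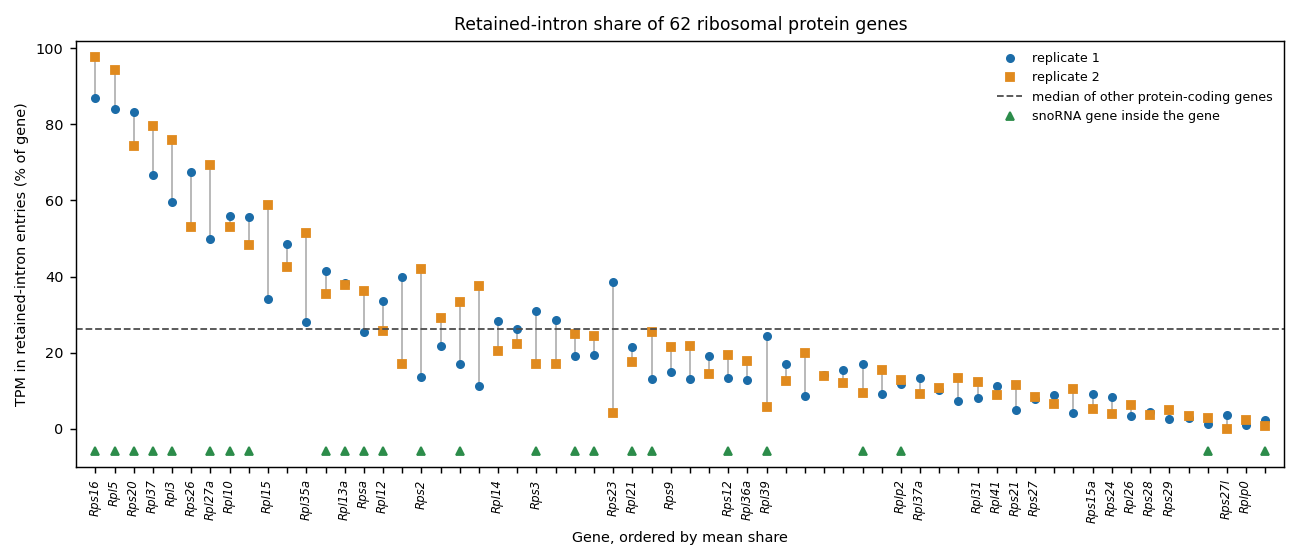
Share of gene TPM in retained-intron entries, in percent, for the 62 ribosomal protein genes that have such entries, ordered by mean share; circles are replicate 1, squares replicate 2, the dashed line is the median of other protein-coding genes (26.3%), and triangles mark genes that hold a snoRNA gene. Names are given for genes described in the text. Rps16 stands highest at 86.9% and 97.8%, and 8 of the 9 genes at 50% or more hold a snoRNA gene.

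Rps16 had the highest share, 86.9% in replicate 1 and 97.8% in replicate 2, and Rpl5, which with Rpl11 carries 5S ribosomal RNA and binds Mdm2, had 84.1% and 94.2%. Rps20 had 83.3% and 74.3%, Rpl37 66.7% and 79.5%, and Rpl3 59.5% and 75.9%. Rps26, near the mRNA exit channel, had 67.5% and 53.1%. All of these were above 50% in both libraries, as was Rpl10 (56.0% and 53.1%). Rpl27a (49.9% and 69.2%) crossed 50% in only 1 library, and so did Rpl15 (34.0% and 58.7%), whose mean was below it.

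What these entries hold differed from gene to gene. Of the 172 retained-intron entries of members, 83 (48.3%) cover a whole intron of the main coding transcript, against 27.8% of 16043 entries of other genes, and in 20 members no entry does. Rps16 has a main entry that keeps only part of an intron. Rps16-203, with 72.5% and 94.4% of gene TPM, holds only the last 68 of the 140 bases of the first intron, at chr7:28350924-28350991. In Rpl5 the entry Rpl5-205, with 23.0% and 32.4% of gene TPM, holds 0 bases of the introns of the main coding transcript. Entries of Rpl5 that cover a whole intron had only 4.18% and 4.72%. The main coding transcript is the coding entry with the highest mean TPM, in Rpl5 one of 834 bases, and introns outside it were not counted. For Rps20 the share depended on length, since its coding transcript, Rps20-203, is 3706 bases long: the share of reads in retained-intron entries was 27.9% on average. Counting only entries that cover a whole intron, the median share was 6.10% in replicate 1 and 3.84% in replicate 2 in the members. It was 0% in both libraries in the other genes, where a gene without such an entry counts as 0. The upper quartile went the other way, with 11.1% and 11.2% in the members against 13.4% and 14.2% in the other genes. This measure therefore gave no single direction and depends on which entries are annotated.

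Rpl3 had the most reads among the members above 50% and an entry that keeps an entire intron. Rpl3-204, which holds the whole of intron 3, 583 bases at chr15:80081032-80081614, took up 1370 and 1162 expected counts. The coding transcript Rpl3-201 took up 802 and 222. In TPM these were 36.2% and 45.7% of the gene for Rpl3-204 and 30.9% and 12.8% for Rpl3-201. A further entry of the decay class, Rpl3-205, keeps the last 180 bases of the same intron and had 6.81% and 11.0% of gene TPM. In human cells the RPL3 protein is known to favour an upstream acceptor in this intron of its own transcript, which yields an mRNA destroyed by nonsense-mediated decay. The sites are shown because at this intron the coding and decay forms share the donor and differ in the acceptor, with 10 exon and 20 intron bases each on the minus strand and with the GT or AG of the intron end in capitals.
Rpl3 donor, chr15:80081595-80081624: ataagaactgGTaagaggctcttgggttcc
Rpl3 acceptor of the coding form, chr15:80081022-80081051: actgtgctctgctcctgaAGgcacaagtct
Rpl3 acceptor of the decay form, chr15:80081202-80081231: acctgtggacctctgctcAGctccgctcgg

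Entries of the nonsense-mediated decay class, whose annotated frame ends early, were present in 18 expressed members with a median share of 4.54%, against 4.42% in 3079 other genes. The share was 25% or more in 5 of the 18 members. How many of the other genes reach 25% was not counted, so this is no contrast with them. In Rpl12, part of the base of the stalk, the decay entry Rpl12-201 had 52.5% of gene TPM in replicate 1, against 60.0% in replicate 2. The coding entry Rpl12-203 had 14.0% and 14.2%. In the other deposited table Rpl12-201 had 21.2% and 25.5%, so its level rested on how reads were assigned. Unproductive splicing of the Rpl12 counterpart is known from Caenorhabditis elegans. The decay entry keeps the first 121 of 209 bases of the first intron by using a later donor, and both donors are shown, on the plus strand of chromosome 2 with 10 exon and 20 following bases and the GT in capitals.
Rpl12 donor of the coding form, chr2:32961830-32961859: gtcaaagtcgGTgcgtgccctcgccgcgcc
Rpl12 donor of the decay form, chr2:32961951-32961980: gcgccttaggGTaaggcctggcccgggaca

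Other members with high decay shares used other kinds of change. Rpsa, the small-subunit protein also known as the laminin receptor, had 49.3% and 33.0%, nearly all in Rpsa-206, which adds 73 bases before an exon. Rpl14 had 30.1% and 56.9% in Rpl14-205, which skips an exon of 95 bases. Rpl13a had 19.6% and 30.9%, and only 35.8% and 28.9% of its TPM was in coding entries. In the median expressed member 80.5% of TPM was coding, against 76.1% in other protein-coding genes.

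**Figure D4:**
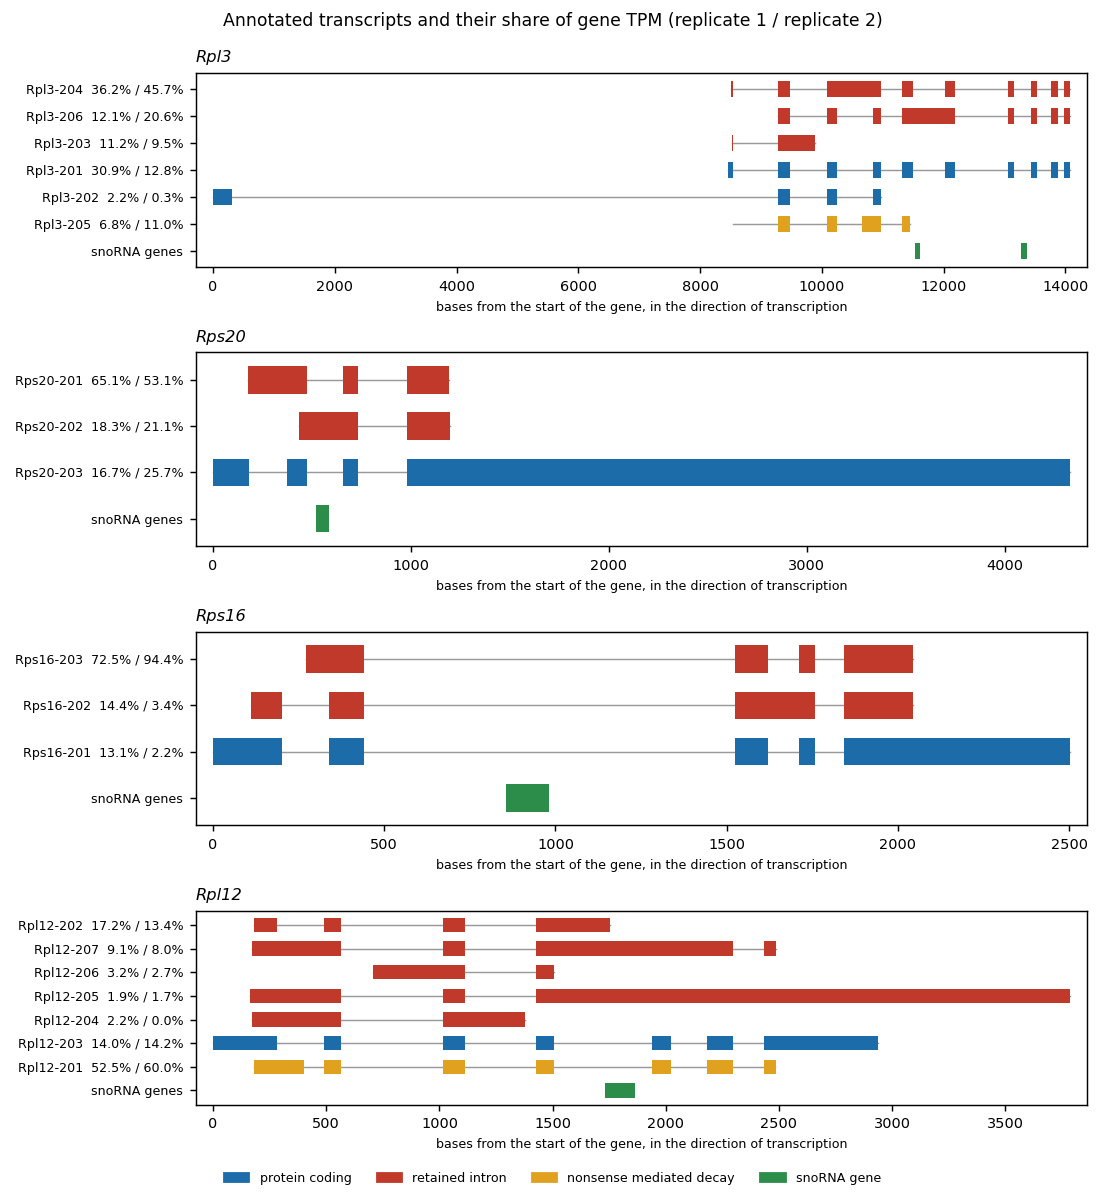
Annotated transcripts of Rpl3, Rps20, Rps16 and Rpl12 with a mean share of at least 1% of gene TPM, drawn to scale from the start of the gene in the direction of transcription; boxes are exons, coloured by class, and each label gives the share in replicate 1 and then replicate 2. Retained-intron entries (red) hold most of the TPM of the upper 3 genes, with intron 3 of Rpl3 filled in Rpl3-204, and in Rpl12 the decay entry (yellow) leads at 52.5% and 60.0%.

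Rps24, the highest member, showed the reverse, with 84.5% of TPM in replicate 1 and 94.6% in replicate 2 in coding entries. Most of that was Rps24-201, with 61.4% and 80.7%, followed by Rps24-210 with 20.5% and 12.7%. Reads put Rps24-210 first in replicate 1 and Rps24-201 first in replicate 2, with 626 and 880 counts for the 468-base Rps24-201 and 1146 and 774 for the 1613-base Rps24-210. These entries end differently: Rps24-201 stops 3 bases into a short exon of 20 bases that Rps24-210 skips. The exon is shown with those 3 bases in capitals.
Rps24, chr14:24495430-24495449, plus strand: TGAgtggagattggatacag
Rps3, a small-subunit protein at the mRNA entry channel, had 68.9% and 83.1% of TPM in coding entries and 31.1% and 16.9% in retained-intron entries.

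SnoRNA genes, whose products guide modification of ribosomal RNA, lay inside 29 of the 77 expressed members, 56 genes in all. Among members with a retained-intron entry, the 25 snoRNA hosts had a median retained share of 27.7% with 8 at 50% or more, and the 37 without a snoRNA gene had 13.7% with 1 at 50% or more. Of the snoRNA genes, 23 lay within the retained sequence of an entry, over 20 hosts. Median levels were 36.3 TPM in hosts and 31.1 TPM in the members without a snoRNA gene. The snoRNA genes themselves had 352 counts in replicate 1 and 44.6 in replicate 2, and 46 of 56 had none in either library. They are 65 to 203 bases long, and the labels give a fragment size of 250 to 400 for these libraries. Snord15a in Rps3 had 108 and 15.0 counts.

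Pseudogenes limit some values. The annotation names 300 pseudogenes after 59 of the members, and 196 had no read in either library. The rest held 995 counts in replicate 1 and 1051 in replicate 2, equal to 1.98% and 3.23% of the members' own. They exceeded 10% of the parent gene's counts in either library for 11 members, Rps2, Rps6, Rps16, Rpl15, Rpl26, Rpl31, Rps23, Rps26, Rpl27, Rpl36 and Rpl36a, so the values of these genes are uncertain. Exons of 18 members also overlap a gene on the opposite strand and those of 27 a gene on the same strand, and the sources used here do not give how strand was used in counting.

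Gene groups that work with the ribosome were set beside the members. The 78 mitochondrial ribosomal proteins had a median of 5.37 TPM, led by Mrpl24 (56.9 and 69.7 TPM), a median library difference of 0.16 and a median retained-intron share of 30.8%. The 18 translation factors and other TOP mRNAs had a median of 31.5 TPM, beside 31.5 TPM over all 80 members, and a median library difference of -0.03, with Eef1a1 at 300 and 415 TPM. The 30 ribosome biogenesis factors had a median of 5.14 TPM and 14 RNA polymerase I genes 4.41 TPM. Among the 7 related genes outside the rule, with a median of 29.1 TPM, Fau had 79.9 and 98.3 TPM and Rps3a1 43.0 and 51.2 TPM, within the range of the members.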

How the data were processed

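Nuclear total RNA-seq was read from tables on mm10 and GENCODE M21, as the deposited text files state. The gene tables and the alignment-based transcript tables that the authors deposited hold expected counts, estimated reads that need not be whole, per the file headers. Deposited TPM values divide these by effective length and scale each library to the same sum, per the file headers. Deposited isoform percent values give a transcript's share of its gene's TPM, per the file headers. A further deposited transcript table holds estimated counts and TPM made from the reads directly. The sources used here name no aligner, quantifier or strand setting.

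Depth was 21941651 and 17730340 expected counts over 55450 genes. Entries outside these were left out and held 0.638% and 0.486% of counts, of which 97 spike-in entries held 0.581% and 0.434% and 86 mouse gene IDs without a name in the deposited annotation 0.0567% and 0.0515%. A chi-square of 91.3 per degree of freedom between libraries over 14338 genes showed that they are not a single library deposited again. Values rest on 1 group of 2 libraries, so no test was made. A count of 0 was read as up to 3 counts. Retained-intron shares were summed over transcripts by class. Transcript sequences and positions came from GENCODE M21. The members, the gene lists and the named genes were chosen with earlier results of these data known. Named were the 10 highest and 5 lowest members, those over 2-fold between libraries with at least 100 counts together, the 10 highest retained-intron shares, the paralogs, the stalk, Rps24, Rpl3, Rpl12, Rps3 and Rpl13a, and leading genes of comparison lists. Rps3a1 was added to its list after the files were read, and the members with decay shares of 25% or more and those with the lowest shares were named after their values were seen. Some genes that these rules name are not reported here. Alternatives were other pseudocounts, filters, scalings (TMM factors from edgeR 4.0.16 in R 4.3.3 on rounded expected counts) and the other table. The share and difference procedures were tested on simulated data. The simulated counts carried counting error only, unlike these libraries, so that check does not measure how reliable the 2-fold differences are. Other steps used Python 3.11.15, numpy 2.4.6, pandas 2.3.3 and matplotlib 3.10.9.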

Additional observations from a re-analysis of the deposited data

How the results depend on the processing

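The ratio of the members' median level to that of other genes was 1.08 by CPM, 2.56 in the other transcript table and 4.33 with at least 10 counts in each library, against 3.63 as reported, and 3.25 to 4.22 with either replicate left out. The count of expressed members was 77 under every alternative run. The members' share of counts ranged from 0.184% to 0.229% with either replicate left out. The median difference between libraries was positive under all alternatives run, but the 6 members over 2-fold became 3 with a pseudocount of 5, 3 without centring and 0 in the other table. The median retained-intron share of 17.7% became 26.2% in the other table, 19.5% as a share of counts and 20.7% with processed transcripts included. It was 16.2% to 17.4% with either replicate left out. The other genes' median of 26.3% became 31.3% in the other table and 28.4% with processed transcripts included. The 9 members at 50% or more became 13 in the other table and 11 as a share of counts. With either replicate left out there were 8 to 10. Other genes at 50% or more, 15.7% of those with such entries, became 21.2% in the other table and 12.8% as a share of counts. They were 13.8% to 19.3% with either replicate left out, so the members' counts partly moved with the background. By count share the members stood above other genes (15.3%), whereas by TPM of all such entries they stood below. Among single genes, the difference of Rps15a reversed to -0.022 by CPM. Of the other alternatives for single genes, 14 moved by more than the spread between libraries and 99 did not. The 99 do not measure stability. Leaving out a replicate cannot move a share beyond that spread, and for a difference the spread was set from the difference itself. Rps21, for example, fell from 1.19 to 0.65 in the other table and still counted as not moved. Causes were not tested. No paired analysis was possible because there was 1 group. Depth limits the values of the paralogs Rpl3l, Rpl39l and Rpl10l.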

Other observations

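Some members differed between the libraries in the share of an annotated form more than in the gene level. These genes were chosen after their values were seen. Rps23 had 33.3 TPM in replicate 1, against 26.6 TPM in replicate 2, yet its retained-intron entry Rps23-202 had 38.5% of gene TPM in replicate 1 and 4.12% in replicate 2. The processed transcript Rps23-203 had 43.1% and 80.0%. The authors' posterior SD of the count of Rps23-202 was 14.1 for 91.2 counts in replicate 1 and 11.3 for 5.22 counts in replicate 2. In the other deposited table the same entry had 47.9% and 55.3% of the gene, so the change was seen only in the alignment-based table of these 2 tables. Rps2 had a retained-intron share of 13.6% and 41.9% at 62.6 and 66.9 TPM. In Rpl23 the processed transcript Rpl23-204 had 4.20% and 38.2% in the alignment-based table and 10.4% and 35.9% in the other.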
